A study of Mus musculus with 16 samples.

Results

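The comparison is between a pair of stem cell types of the early mouse embryo, each grown without the other. Trophectoderm stem cells (TSC) carry the red marker RFP and stand for the outer lineage that builds the placenta. Induced pluripotent stem cells (iPSC) are reprogrammed cells that carry the green marker GFP and stand for the inner lineage that builds the embryo. The libraries were chosen by their labels: 4 of the 16 libraries of the series, replicates 1 and 2 of TSC alone and replicates 1 and 2 of iPSC alone, none of them given BMP4. Both cell types were plated on 5% Matrigel in a shared serum-containing medium (10% FBS) with 12.5 ng/ml FGF4 and 500 ng/ml of its cofactor heparin. Colonies were collected at day 3, and each library was made by Smart-seq2, a full-length method for small amounts of RNA, from a single picked colony. The remaining 12 libraries are the same cell types cultured alone with BMP4 for the last 24 hours, and the iPSC part and TSC part of structures that the mixed cells assembled into, without and with BMP4. Strain, sex, passage and reprogramming factors of the lines are not stated in the labels. Nor do the labels say whether replicates are separate cultures, so every p-value below measures only the spread between libraries of the series.

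Levels are the deposited FPKM (fragments scaled to transcript length and to the mapped fragments of the library). A difference is TSC minus iPSC on the scale of log2(FPKM + 1), given ± its standard error from limma, with n = 2 libraries per group. That error draws on 1 spread per gene shared by all 16 libraries, so it can be too small where the TSC replicates disagree. For genes at low levels this scale gives less than the true fold. A gene was tested if it reached 1 FPKM in at least 2 of the 16 libraries, which 13406 genes did, and called if its Benjamini-Hochberg adjusted p was under 0.05. FPKM summed to 666077 and 764532 in TSC and to 753791 and 752753 in iPSC. The TSC libraries were the less alike: across genes Pearson's r between replicates was 0.942 in TSC and 0.973 in iPSC. Of the genes tested 2083 (15.5%) differed more than 2-fold between the TSC replicates against 454 (3.39%) between the iPSC replicates. Of the 2083 genes 601 were called. Where both libraries of a group are listed at 0, no difference is given, because the depth of the libraries is unknown. An example is Surf1, an assembly factor of mitochondrial complex IV, with 0 and 0 in TSC and 29.3 and 32.3 FPKM in iPSC. It was lower in every TSC library of the series than in any iPSC library, as given below. Values joined by "against" are replicates 1 and 2 of TSC against replicates 1 and 2 of iPSC. In bulk colonies, fewer cells of a type and less RNA per cell cannot be told apart.

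The trophoblast lineage separates from the embryo when cells on the outside of the early embryo start to express transcription factors such as Cdx2, Gata3 and Tfap2c, helped by TEAD4 and its partners. Cells on the inside keep Pou5f1, Sox2 and Nanog. Cultured trophoblast stem cells depend on FGF4 with heparin, and on Nodal or activin signals, to stay undifferentiated, and they lose Cdx2, Eomes and Esrrb when those signals stop. Pluripotent cells pass from a naive state, marked by Klf4, Esrrb and Tfcp2l1, through a formative state to a primed state marked by Otx2, Fgf5 and Dnmt3b.

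The labels were checked against defining markers. Of the TSC markers, Tfap2c (140.5 and 99.4 FPKM), Gata3 (47.01 and 34.3), Krt8 (2932 and 1367) and Krt18 (2947 and 1705) were all far above their levels in iPSC, where Tfap2c had 1.39 and 2.99, Gata3 0.163 and 0.227, Krt8 96.9 and 58.1 and Krt18 83.5 and 58.9. The markers that define the undifferentiated stem state were low or listed at 0 in TSC: Cdx2 had 0 and 3.89, Eomes 0.219 and 0.0844, Esrrb 0 and 0.1401, and Sox2 0 and 0.05403 FPKM, and only Elf5 was clearly present at 5.51 and 11.6. By these markers the cells labelled TSC carried trophoblast keratins, Gata3 and Tfap2c, and were low in the factors Cdx2, Eomes and Esrrb by which undifferentiated trophoblast stem cells are defined. In iPSC, Pou5f1 (326 and 219), Nanog (27.5 and 37.4), Sall4 (54.9 and 54.9) and Utf1 (446 and 541) were present, while Sox2 stood at 2.98 and 0.758, Esrrb at 0.297 and 0.354 and Klf4 at 0.2298 and 0.0354. Utf1 did not pass the test, with 168 and 247 FPKM in TSC, below both iPSC libraries (-1.27 ± 0.70, limma adjusted p = 0.178). Markers of other cell types were mostly under the filter: 6 of 18 fibroblast, 7 of 18 neural and 4 of 15 blood and endothelial genes were tested. The defining Col1a1, Col3a1 and Dcn of fibroblasts and Cdh5 of endothelium stayed at or below 0.588 FPKM in all 4 libraries. Summed over each list, fibroblast markers came to 8.800 and 7.97 FPKM in TSC and 12.1 and 10.4 in iPSC, neural markers to 3.68 and 5.34 and 57.00 and 66.00, and blood and endothelial markers to 53.9 and 31.9 and 10.1 and 7.92, and their part in the results was not tested. Most of the neural sum in iPSC was Stmn2. Most of the blood sum in TSC was Cd68, a lysosomal protein found in macrophages (52.97 and 30.6 against 5.34 and 3.54). Csf1r, a receptor of macrophages, was also higher in TSC, at a low level (0.888 and 1.37 against 0.0272 and 0.0477, 1.03 ± 0.34, limma adjusted p = 0.0309). The blood cell genes Ptprc, Tyrobp and Lyz2 were listed at 0 in all 4 libraries.

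Of the genes tested, 4878 (36.4%) were called, 2172 higher in TSC (16.2%) and 2706 lower (20.2%), and the median difference of all genes was -0.11. Counts of list members below are read against these shares. With a difference of at least 1 as well, 1821 (13.6%) were higher and 2125 (15.9%) lower, and 39 genes were higher and 38 lower by at least 5. Without replicate 1 of iPSC 3225 genes were called and without replicate 2 of iPSC 3045. The 2 libraries of each group did not overlap in 3986 genes that were higher (29.7%) and 5125 that were lower (38.2%), so lack of overlap alone is common with 2 libraries a group. A list member that passed the filter only through the group where it is high had to differ, so the counts of members below are descriptions.

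The largest differences towards TSC among all genes tested belonged to a pair of X-linked homeobox genes of the Rhox cluster, which is known for expression in placenta and germ line. Rhox6 had 8183 and 4481 FPKM in TSC against 3.19 and 4.53 in iPSC (10.30 ± 1.38, adjusted p = 0.000147), and Rhox9 had 4206 and 2588 against 3.11 and 3.37 (9.60 ± 1.35). The Rhox copies are close relatives and reads may have been shared among them. Rhox6 and Phlda2 were also among the 10 most abundant transcripts of TSC. Phlda2, an imprinted brake on placental growth, had 6773 and 4649.8 FPKM against 73.3 and 36.96 (6.72 ± 0.78), and Plac1, an X-linked gene the placenta needs for normal growth, 745 and 293 against 0.396 and 0.3103 (8.44 ± 0.78). Lack of overlap between the cell types was part of the rule that chose these 4 genes, and replicate 1 of TSC exceeded replicate 2 in each of them.

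The other genes with the largest differences towards TSC were of several kinds. Secreted and surface proteins were Igf2, the fetal growth factor (1345 and 1104 against 1.32 and 2.41 FPKM), and Lgals3, a galactose-binding lectin (482 and 576 against 4.28 and 3.604). Another was Tinagl1, a matrix protein (257 and 253 against 4.54 and 2.76). Transcription factors were Hand1, which drives giant cell formation (149.6 and 288 against 1.33 and 0.696), Dlx3 (87.2 and 81.01 against 1.07 and 0.413) and Gata2 (97.8 and 67.2 against 0.776 and 1.09). To them belong Pparg, a fatty acid sensor the placenta requires (102 and 49.5 against 0.157 and 0.0648), and the TEAD partner Vgll1 (33.4 and 55.2 against 0 and 0.0518). Fabp3, a fatty acid carrier, stood at 1689 and 4767 FPKM against 62.9 and 49.6, with its replicates ordered the other way from those of Plac1. The cell cycle inhibitor Cdkn1c had 479.8 and 173 against 1.55 and 0.959, and the splicing regulator Mbnl3 178 and 217 against 1.22 and 1.76. The RNA export gene Nxf7 had 102 and 112 against 0.337 and 0.1397, Csrp1 205 and 272 against 4.94 and 4.505, and Dkkl1 249.9 and 224 against 2.98 and 2.41. For all of them the rule of choice required the TSC libraries to lie above both iPSC libraries. The differences ran from 5.38 ± 0.42 (Csrp1) to 8.76 ± 1.07 (Igf2).

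Genes with the largest differences towards iPSC included the core factor Pou5f1 (0.0335 and 1.03 FPKM in TSC against 326 and 219 in iPSC, -7.53 ± 0.65, adjusted p = 1.03e-05) and Dppa5a, an RNA-binding protein of pluripotent cells (7.55 and 10.4 against 879 and 1686). Psors1c2, which lies close to Pou5f1 on chromosome 17, went with it at 0.482 and 0 against 410.0 and 210.1 FPKM (-7.92 ± 0.61). Apoe, the lipid carrier apolipoprotein E, had 1.28 and 0.814 against 374 and 328, the hormone precursor Trh 0 and 0.289 against 137 and 229 and the kinase Pim2 2.74 and 3.09 against 514 and 459. The G protein subunit Gng3 had 0.664 and 0.984 against 230.1 and 182, the arginine and lysine transporter Slc7a3 0.226 and 0.0555 against 87.5 and 115 and the protease inhibitor Slpi 0 and 0.428 against 50.4 and 38.9. Gja1, a gap junction protein, stood at 0.263 and 0.232 against 101.4 and 120.4. In each case the iPSC libraries lay above both TSC libraries, which the rule of choice required, and several of the TSC values were close to 0.

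**Figure D1:**
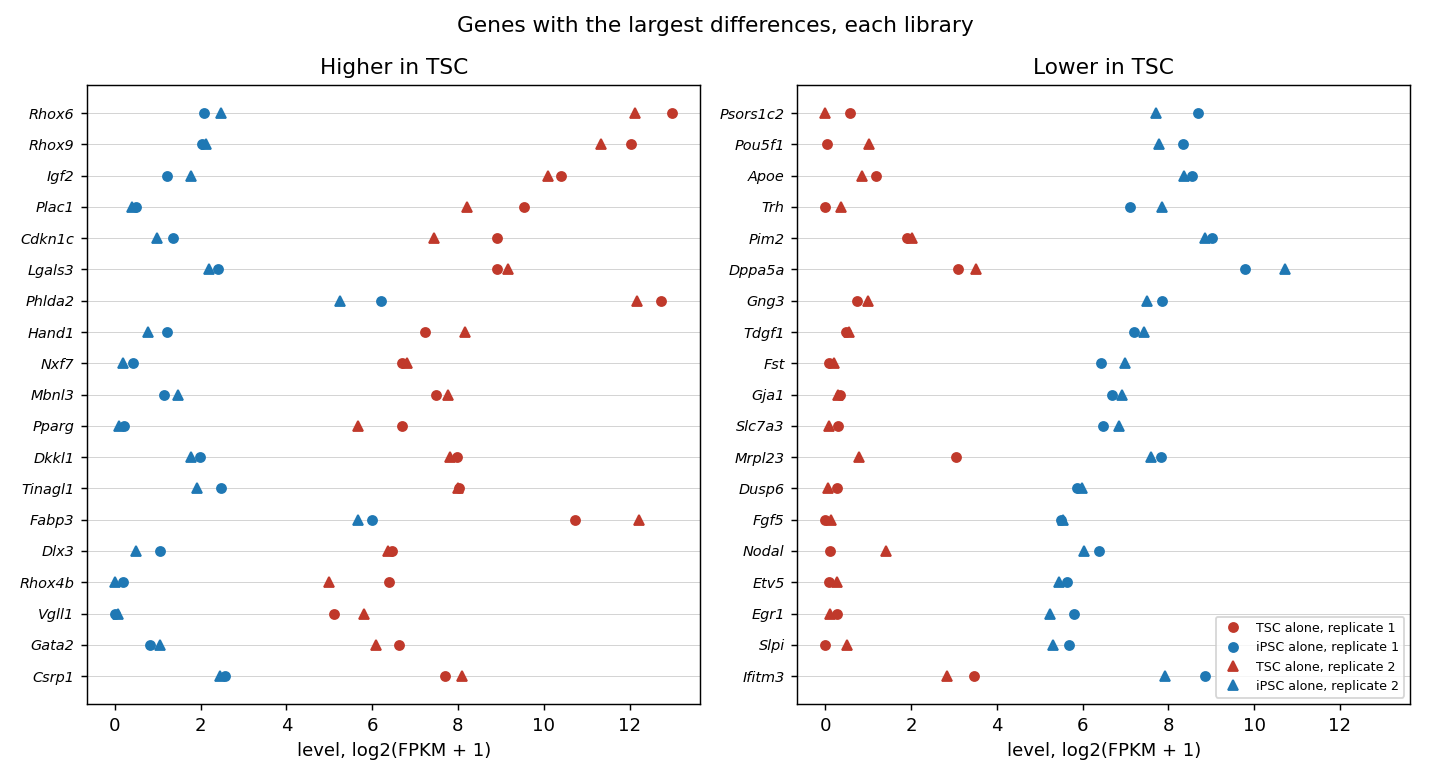
Level of 38 genes with the largest called differences, as log2(FPKM + 1) on the x axis, with a red or blue point for each TSC or iPSC library (circle for replicate 1, triangle for replicate 2). The red and blue points do not overlap in any row, which the rule for choosing the genes required, and the TSC points spread more than the iPSC points for Plac1, Cdkn1c, Rhox4b and Mrpl23.

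The promoters of 3 of these genes are shown because they stand at opposite ends of the comparison: Phlda2 and Plac1 among the highest in TSC, Pou5f1 among the lowest. The windows run from 250 bases before to 50 after the first annotated start of each gene and come from RefSeq on GRCm38.p6, a later build than the mm9 named in the submitters' processing notes. Capitals mark matches on either strand to the AP-2 family motif GCCNNNGGC, the motif AGATAA of GATA factors and the SP and KLF motif GGGCGG.
Phlda2, chr7:143502475-143502774, minus strand: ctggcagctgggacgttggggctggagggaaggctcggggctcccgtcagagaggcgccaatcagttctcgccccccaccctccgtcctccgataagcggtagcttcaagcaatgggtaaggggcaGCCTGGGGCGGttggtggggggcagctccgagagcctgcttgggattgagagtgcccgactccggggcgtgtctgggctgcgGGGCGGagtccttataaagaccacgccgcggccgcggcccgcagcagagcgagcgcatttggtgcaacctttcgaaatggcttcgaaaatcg
Plac1, chrX:53240061-53240360, minus strand: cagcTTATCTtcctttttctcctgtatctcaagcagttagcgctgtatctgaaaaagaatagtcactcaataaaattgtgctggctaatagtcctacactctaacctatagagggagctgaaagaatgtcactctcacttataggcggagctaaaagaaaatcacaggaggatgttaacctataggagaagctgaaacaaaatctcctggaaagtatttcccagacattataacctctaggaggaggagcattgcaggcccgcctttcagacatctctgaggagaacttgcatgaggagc
Pou5f1, chr17:35505782-35506081, plus strand: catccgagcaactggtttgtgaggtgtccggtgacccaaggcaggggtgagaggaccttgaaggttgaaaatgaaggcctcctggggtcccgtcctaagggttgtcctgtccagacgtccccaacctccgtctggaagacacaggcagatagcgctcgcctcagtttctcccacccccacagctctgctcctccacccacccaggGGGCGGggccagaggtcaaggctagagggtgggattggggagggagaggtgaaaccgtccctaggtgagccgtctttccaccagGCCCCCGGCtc
Phlda2 held 1 AP-2 match, which began 124 bases before the start and ran into an SP/KLF match that began 119 bases before it, and another SP/KLF match 42 bases before. Plac1 held a single GATA match, 246 bases before the start. Pou5f1 held an SP/KLF match 45 bases before the start and an AP-2 match that began 40 bases after it. Of all promoters in the RefSeq table, 16.5% hold an AP-2 match, 11.4% a GATA match and 35.9% an SP/KLF match in the same window. Among the tested genes with a promoter there, the shares are 25.7%, 6.1% and 66.0%. AP-2 and SP/KLF matches are thus common, and all matches describe these letters only. A comparison of promoters between genes called higher and lower is void and no result of it is given, since only 71.6% of the tested genes had a promoter in the table.

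Trophoblast stem cell and extraembryonic ectoderm regulators were higher in TSC more often than lower. Of 40 listed genes 37 were tested, 17 were called higher and 3 lower, and the median difference was 1.82, beside -0.11 for all genes. Among transcription factors, Tfap2c (5.27 ± 0.39), Gata3 (5.11 ± 0.48) and Gata2 (5.41 ± 0.67) led. Behind them came the TEAD factor Tead4 (11.7 and 4.49 FPKM in TSC, 0.386 and 0.245 in iPSC), the differentiation inhibitor Id2 (110.2 and 269.9 against 52.3 and 34.2) and Msx2, a homeobox target of BMP signals (8.16 and 63.2 against 0.795 and 0.357). The surface protein Plet1 had 83.2 and 77.2 FPKM in TSC and 1.15 and 1.27 in iPSC. Members called lower in TSC were Eomes (0.219 and 0.0844 against 2.41 and 2.03), Klf5 (2.52 and 3.21 against 9.22 and 11.2) and the FGF feedback gene Spry4. Cdx2 (limma adjusted p = 0.327), Esrrb (0.756) and Fgfr2, the main FGF4 receptor of trophoblast stem cells (3.03 and 13.3 against 1.39 and 0.568 FPKM, adjusted p = 0.103), did not pass the test. Elf5 did not pass either (2.79 ± 1.12, limma adjusted p = 0.068), although both TSC libraries (5.51 and 11.6 FPKM) lay above both iPSC libraries (0.213 and 0.413). Its standard error draws on the spread of all 16 libraries, those of the groups not compared here included. The replicates of TSC lay far apart for Cdx2 and for Fgfr2, where replicate 2 was the higher.

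Genes of differentiated trophoblast were divided. In the whole list 31 of 54 genes were tested, with 17 called higher and 8 lower in TSC (median 1.38). Of the rest 2 were not in the table and 21 stayed under the filter, among them the cathepsins Cts7, Cts8, Ctsj and Ctsq, which were listed at 0 in all 4 libraries. Of the genes of spongiotrophoblast and glycogen cells 4 of 6 tested were higher and 2 lower: Ascl2, the factor that maintains this layer, had 45.3 and 114 FPKM in TSC and 1.87 and 0.944 in iPSC (4.95 ± 0.67), and the connexin Gjb5 194 and 118 against 5.18 and 2.54. Flt1, the VEGF receptor of spongiotrophoblast, was lower in TSC at 0.02500 and 2.19 against 6.900 and 7.92. Of the syncytiotrophoblast genes 4 of 9 tested were higher, Pparg among them, and 3 lower. Its master regulator Gcm1 did not pass (0 and 2.095 against 1.78 and 2.21, adjusted p = 0.166). Ly6e, the receptor for a placental syncytin, was lower (12.8 and 11.8 against 70.9 and 65.03), and so was the lactate exporter Slc16a3 (18.9 and 58.5 against 179 and 124). Of the giant cell genes 4 of 7 tested were higher and 1 was lower, Hopx (0.169 and 0.758 against 14.4 and 9.301). The steroidogenic enzyme Cyp11a1 stood at 0.389 and 1.58 against 0.156 and 0.387 and did not pass.

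Pluripotency factors were mostly lower in TSC, 22 of 37 tested (of 40 listed), with 4 higher and a median of -1.54. Of the core group, Nanog had 0.355 and 1.58 FPKM in TSC and 27.5 and 37.4 in iPSC (-4.15 ± 0.53) and Lin28a 4.59 and 7.53 against 22.5 and 20.4. Sall4, which trophoblast stem cells also use, differed less (35.9 and 24.9 against 54.9 and 54.9, -0.85 ± 0.24). Among naive-state genes the order was reversed for several members: Tfcp2l1 stood at 14.7 and 37.9 FPKM in TSC and 0.516 and 0.448 in iPSC (4.06 ± 0.67, adjusted p = 0.000593), and Tbx3 at 4.22 and 15.1 against 0.2396 and 0.554. Klf4 stood at 2.401 and 2.26 against 0.2298 and 0.0354, and Mybl2 at 35.3 and 25.5 against 9.01 and 15.7. Dppa3, a maternal protein that guards methylation marks, went with the core factors (0.4895 and 0.724 against 29.2 and 35.3). Zfp42, also known as Rex1, stood at 9.81 and 9.42 in TSC and 5.99 and 8.57 in iPSC, with the groups close together (adjusted p = 0.511).

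Genes of the formative and primed epiblast were high in iPSC. Of 23 tested (of 27 listed), 15 were lower in TSC and 3 higher, with a median of -1.84. Otx2, the factor that opens the primed state, was listed at 0 in both TSC libraries and stood at 13.8 and 16.6 FPKM in iPSC. Fgf5 stood at 0 and 0.0979 in TSC and 44.3 and 45.9 in iPSC (-5.46 ± 0.47), and the de novo methyltransferase Dnmt3b at 8.899 and 3.92 against 174 and 174 (-4.65 ± 0.46). Members that ran the other way were Myc (138 and 112 against 20.96 and 30.6 FPKM), Sox4 (8.23 and 3.54 against 1.42 and 1.65) and the octamer factor Pou2f3 (2.85 and 6.84 against 0.184 and 0.317). Of 25 tested genes of primitive streak and mesoderm 9 were lower in TSC and 1 higher. Signals and receptors made up 7 of the lower ones, while of 17 tested factors 2 were lower. One of these factors was T, or brachyury (0.924 and 0.4898 against 44.6 and 39.6). Lower in TSC were also Wnt3 (0.0265 and 0 against 8.45 and 7.35), Wnt8a (0 and 0.147 against 31.03 and 16.3), Fgf8 (0.4198 and 0.887 against 27.8 and 25.7) and Sp5 (0.0403 and 0.178 against 13.1 and 13.7). The later factors Mixl1 (1.09 and 1.59 in iPSC) and Foxa2 (0.8304 and 0.162) stayed low in both cell types and did not pass. Of neural markers 4 of 7 tested were lower in TSC and none higher, and of endoderm genes 4 of 15 were lower, Apoe among them, and 3 higher. Named examples are Stmn2 (0.3499 and 0.104 against 34.6 and 45.3) and the endoderm factor Hhex (0.06495 and 0 against 3.43 and 4.19), both lower in TSC.

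Most adaptors of FGF receptors and most genes that ERK induces differed in opposite directions, in a medium that gave both cell types FGF4. Of 18 FGF ligands 10 stayed under the filter, and of the 8 tested 5 were lower in TSC and none higher. Fgf5 and Fgf8 are given above, and Fgf4 was listed at 0 in TSC and at 1.98 and 2.94 FPKM in iPSC. Of the adaptors that couple FGF receptors to ERK 4 of 6 tested were higher, with Frs2 at 7.56 and 12.9 against 2.199 and 2.57 FPKM and Gab1 at 37.7 and 35.9 against 9.35 and 13.9, and Frs3 lower at 0 and 2.27 against 4.698 and 6.25. Among receptors Fgfr1 stood at 7.11 and 15.5 in TSC and 9.47 and 7.33 in iPSC and, like Fgfr2, did not pass. Several genes that ERK induces were close to 0 in TSC. Dusp6, the phosphatase that limits ERK, had 0.206 and 0.0433 FPKM in TSC against 57.3 and 62.5 in iPSC (-5.76 ± 0.43, adjusted p = 6.8e-06), the inhibitor Spry2 had 0.477 and 0.599 against 12.3 and 21.01, and Spry4 had 0.0174 and 0.0255 against 5.78 and 5.07. Of the targets, the ETS factor Etv4 stood at 0.143 and 0.0528 against 12.96 and 9.303, its relative Etv5 at 0.06402 and 0.208 against 48.7 and 43.00, and the immediate early gene Egr1 at 0.215 and 0.0792 against 55.1 and 36.99. Cyclin D1 (Ccnd1) stood at 0.356 and 0.682 against 38.7 and 21.7. Both TSC libraries were under 1 FPKM for each of these genes. In all, 13 of 23 tested (of 25 listed) feedback genes and targets were lower and 4 higher, with a median of -2.05. Those higher in TSC were Dusp5 (6.65 and 7.68 against 2.33 and 1.46), Myc, Lif (7.16 and 10.9 against 1.08 and 2.68) and Pea15a (102 and 112 against 23.5 and 22.1).

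In the Nodal pathway ligands and inhibitors were lower in TSC, and some transducers higher. Nodal had 0.0807 and 1.67 FPKM in TSC and 82.5 and 64.5 in iPSC (-5.44 ± 0.57), the related ligand Gdf3 0.0397 and 0.117 against 14.7 and 32.8, and the co-receptor Tdgf1, or Cripto, 0.399 and 0.459 against 147 and 172 (-6.81 ± 0.96). The inhibitors of Nodal or activin were lower in TSC as well, all 3 tested. Of those that Nodal induces, Lefty1 stood at 1.28 and 5.58 against 23.6 and 38.3 and Lefty2 at 0.0672 and 0.0496 against 15.00 and 16.2. Follistatin (Fst), which binds activin, stood at 0.0617 and 0.158 against 85.9 and 127. Smad2 and Smad3, which carry the signal to the nucleus, were higher in TSC (43.4 and 55.9 against 13.1 and 11.6 for Smad2, 2.93 and 9.35 against 1.802 and 0.733 for Smad3). So was furin, the convertase that extraembryonic cells use to mature Nodal (9.44 and 5.68 against 0.775 and 0.416). The SMAD2 partner Foxh1 was lower, at 0.834 and 4.86 against 124 and 96.1 (-5.07 ± 0.45). Over the 27 tested (of 34 listed) members 6 were higher and 10 lower, so the median of -0.13 describes neither arm.

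BMP pathway genes leaned towards TSC, with 13 of 34 tested (of 47 listed) higher and 4 lower (median 0.59). Of the ligands that extraembryonic ectoderm makes, Bmp8a stood at 11.1 and 8.43 FPKM against 0.452 and 0.472 and Bmp8b at 6.07 and 11.8 against 1.37 and 0.952. Bmp4 itself was low in both (0.267 and 0.623 against 1.02 and 0.925, adjusted p = 0.7). The type I receptor Bmpr1a was higher (9.47 and 11.5 against 2.89 and 4.26), the co-receptor endoglin (Eng) lower (0.463 and 1.798 against 19.5 and 12.01), and the inhibitory Smad7 higher (9.98 and 9.36 against 1.69 and 1.64). Target genes did not move as one: Id2, Msx2, Gata2 and Gata3 were higher, while Id1 (7.16 and 105 against 44.9 and 65.2, adjusted p = 0.451) and Id3 (13.5 and 37.6 against 91.1 and 91.97, adjusted p = 0.0605) did not pass. For Id1 the TSC libraries lay on both sides of the iPSC libraries.

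Wnt ligands differed in both directions: Wnt6 (7.37 and 43.4 FPKM in TSC, 1.01 and 0.596 in iPSC) and Wnt7b (3.32 and 13.8 against 0.308 and 0.347) were higher in TSC, Wnt3 and Wnt8a lower. Porcn, the enzyme that makes Wnt proteins fit for secretion and lies on the X chromosome, was listed at 0 in both TSC libraries and stood at 4.74 and 4.63 in iPSC. The nuclear effectors Tcf7l1 (39.8 and 30.3 against 5.77 and 8.403) and Tcf7l2 (26.2 and 108 against 9.54 and 12.5) were higher in TSC, while the direct target Axin2 did not pass (0.804 and 1.34 against 3.27 and 0.934). Of 40 tested (of 51 listed) members 9 were higher and 13 lower (median 0.10).

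The Hippo pathway controls whether YAP and TAZ enter the nucleus to join TEAD factors, the switch that starts trophoblast fate. Its TEADs and coactivators were higher in TSC, 6 of 9 tested with none lower: besides Tead4 and Vgll1, TAZ (Wwtr1) stood at 29.3 and 44.6 against 4.89 and 4.896 FPKM (2.66 ± 0.27). Vgll4, a repressor of TEADs, stood at 34.02 and 47.6 against 4.89 and 5.39, while Yap1 (8.67 and 9.08 against 4.93 and 5.53) did not pass. The classical targets of YAP went the other way, with 4 of 7 tested lower and none higher. Ctgf had 0.515 and 0.205 FPKM in TSC against 14.7 and 14.9 in iPSC (-3.55 ± 0.53), Ajuba 5.69 and 5.402 against 28.5 and 38.5, and Cyr61 1.67 and 32.3 against 50.5 and 49.2, where the TSC replicates lay far apart. Over all 31 tested (of 32 listed) members the median was 0.61.

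Notch genes were lower or did not pass (5 of 13 tested (of 21 listed) lower, none higher), with the effector Hes1 at 0.242 and 0.719 FPKM in TSC and 11.8 and 30.9 in iPSC and the ligand Dll3 at 0.963 and 2.198 against 7.95 and 12.7. In the retinoic acid list (2 of 13 tested (of 21 listed) higher and 5 lower), the binding proteins Crabp1 (0.129 and 0 against 21.3 and 12.8) and Crabp2 (0.528 and 2.38 against 9.05 and 8.37) were lower in TSC and the receptor Rxra (9.76 and 7.82 against 0.706 and 1.07), the partner of PPARG, was higher.

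Imprinted genes are expressed from the copy of a single parent, and many act on placental growth. Of 43 tested (of 59 listed), 14 were higher in TSC and 11 lower (median 0.09), in both parental classes. Igf2 had 1345 and 1104 FPKM in TSC and 1.32 and 2.41 in iPSC, while H19, its maternally expressed neighbour, stood at 0.499 and 0.967 against 2.997 and 1.38 and did not pass (adjusted p = 0.575). Among other paternally expressed genes, Peg10, a retrotransposon-derived gene the placenta needs (152 and 163 against 6.700 and 11.5), the repressor Sfmbt2 (75.6 and 79.7 against 0.813 and 5.53) and the amino acid transporter Slc38a4 (386 and 304 against 33.2 and 43.8) were higher. Mest (0.6005 and 11.2 against 123 and 137), Nnat (0.638 and 2.48 against 44.2 and 51.1) and Impact (0.944 and 3.65 against 43.2 and 41.1) were lower. The maternally expressed Cdkn1c, Phlda2, Ascl2 and Slc22a18 form part of a single imprinted cluster with Igf2 on distal chromosome 7, and all were called higher in TSC. Slc22a18 was listed at 0 in both iPSC libraries and stood at 2.21 and 5.64 FPKM in TSC. Grb10, an inhibitor of growth factor receptors, was at 18.7 and 14.9 against 0.641 and 0.696, and the noncoding Meg3 was at 0 and 0.0667 against 65.6 and 14.5, with the iPSC libraries themselves far apart. Of the Rhox cluster 10 of 12 tested (of 24 listed) genes were higher (of 24 listed) and 1, Rhox13, was lower (0.115 and 0 against 2.62 and 2.200).

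The lines differed in their sex chromosome transcripts. The Y-linked Eif2s3y stood at 0.121 and 0.182 FPKM in TSC against 30.05 and 20.1 in iPSC, Ddx3y at 0.0172 and 0 against 2.06 and 2.96, and Uty was listed at 0 in TSC and at 4.05 and 1.42 in iPSC. Xist, the RNA that coats the inactive X chromosome, had 12.7 and 9.94 in TSC and 0.172 and 0.228 in iPSC (3.35 ± 0.46). Tsix, transcribed from the other strand of the same locus, cannot be told apart from Xist where strand is not recorded. Every comparison of TSC with iPSC here is thus also a comparison of a line with Xist and without Y transcripts to a line with Y transcripts and without Xist, and lineage and sex chromosomes cannot be told apart.

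By chromosome, the differences were not spread evenly, a pattern looked for after the values were seen. Genes were placed on chromosomes by symbol with GENCODE vM21, which held 99.8% of those tested. On chromosome 11, 1168 tested genes had a median difference 0.40 above that of all genes, and 321 were called higher and 129 lower. On chromosome 1, 717 genes had a median 0.31 above it, and 174 were called higher and 93 lower. The other autosomes except 19 lay between -0.14 and 0.03, and the X chromosome at -0.25. The same 2 autosomes stood above the rest in the 3 other TSC and iPSC comparisons, which share no library with this one but use the same cell types: chromosome 11 at 0.42, 0.39 and 0.35 and chromosome 1 at 0.28, 0.28 and 0.26 for cells alone with BMP4, assembled parts and assembled parts with BMP4. Chromosome 19 differed from these. It stood 0.56 above the iPSC level in replicate 2 of TSC alone, against 0.01 in replicate 1 and -0.08 to -0.01 in the 6 libraries of the other TSC groups. Of its 426 tested genes 27.9% were more than 2-fold higher in replicate 2 of TSC than in replicate 1, against 10.8% of all genes. Median transcript GC content was 52.3% for chromosome 11, 47.7% for chromosome 1 and 49.9% over all genes. Over genes with a mean of at least 5 FPKM the shifts were 0.52 on chromosome 11 and 0.37 on chromosome 1. The part of GC content in them was not tested.

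**Figure D2:**
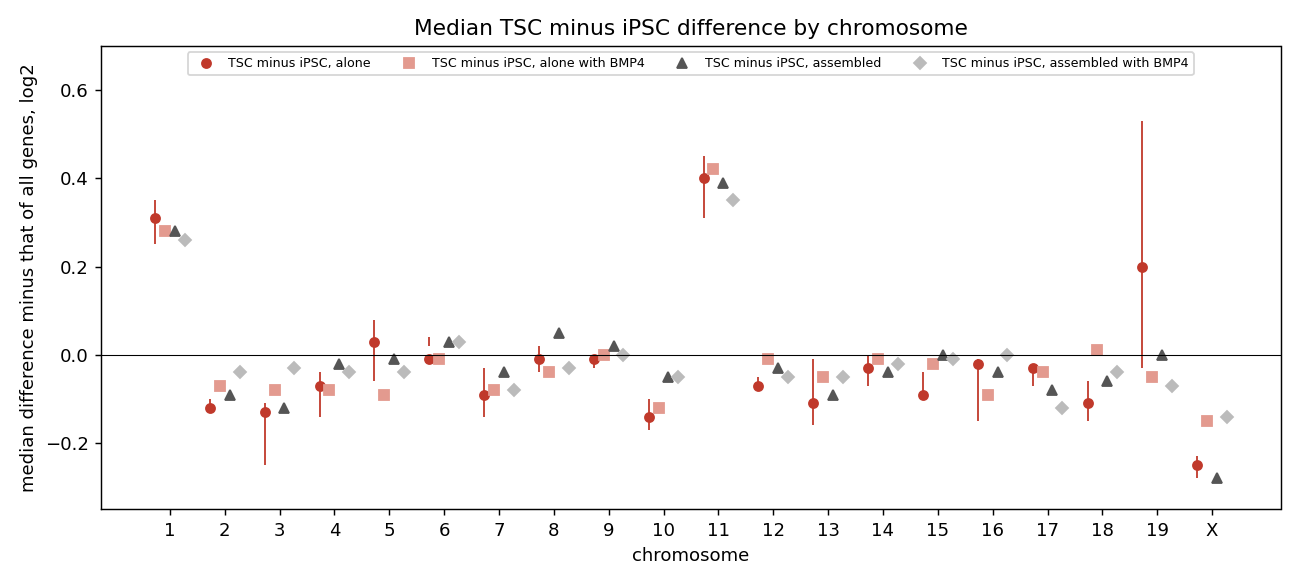
Median TSC minus iPSC difference of log2(FPKM + 1) for the tested genes of each chromosome, after subtracting the median of all genes (y axis), for cells cultured alone (red circles) and the 3 other pairs of groups. Vertical lines span the 4 pairings of a TSC with an iPSC library cultured alone; chromosomes 1 and 11 lie at 0.26 or above in every pair of groups, and the long line at chromosome 19 runs from -0.03 to 0.53.

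Chromatin genes were mixed. The maintenance methyltransferase Dnmt1 was higher in TSC (45.4 and 34.9 FPKM against 14.8 and 14.2), while the de novo enzymes Dnmt3a (19.6 and 9.79 against 37.9 and 54.2) and Dnmt3b were lower. Dnmt3l, their cofactor, had replicates of TSC that lay on both sides of replicate 1 of iPSC (0.0525 and 14.5 against 8.99 and 21.98). Of the TET demethylases, Tet1 was lower (under 0.01 and 1.31 against 12.5 and 7.82) and Tet3 higher (6.06 and 2.38 against 0.634 and 0.478). The demethylation helpers Gadd45b (77.6 and 59.6 against 3.104 and 5.42) and Gadd45g (52.3 and 73.2 against 3.34 and 2.36) were higher. In all 7 of 25 tested (of 27 listed) members of this list were higher and 8 lower. Polycomb and histone modifiers had 10 higher and 12 lower of 47 tested (of 49 listed). The catalytic Ezh2 did not pass (16.1 and 17.3 against 22.1 and 27.6) and its alternative Ezh1 was higher (5.96 and 15.6 against 3.78 and 3.63). Within PRC1, the chromobox reader Cbx7 was lower in TSC (2.29 and 4.42 against 10.1 and 8.74), and Cbx8 (9.35 and 2.55 against 0 and 0.372) was higher. Phc1 was lower (7.15 and 8.82 against 79.2 and 67.8) and its relative Phc2 higher (17.8 and 22.04 against 4.95 and 2.73).

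Epithelial genes were higher in TSC, 20 of 41 tested (of 51 listed) with 2 lower (median 0.86). Of the keratins 5 of 6 tested were higher and none lower, with Krt7 at 117 and 137 FPKM against 2.24 and 2.22, Krt19 at 868 and 439 against 20.2 and 10.9, and Krt8 and Krt18 as above. Replicate 1 of TSC was the higher for Krt8, Krt18 and Krt19. Among tight junction genes Cldn3 (278 and 402 against 8.91 and 11.2) and Cldn4 (83.1 and 129.6 against 22.4 and 18.4) were higher and occludin, Ocln, lower (2.13 and 3.39 against 9.04 and 8.16). E-cadherin (Cdh1, 82.1 and 95.6 against 58.7 and 57.97) and Epcam (270.4 and 245 against 226 and 253), which both lineages use, did not pass, nor did N-cadherin (Cdh2) or vimentin (Vim, 10.5 and 1.15 against 10.3 and 14.02). Matrix genes had 12 higher and 4 lower of 40 tested (of 53 listed): the laminin receptor subunit Itga6 (20.98 and 35.1 against 5.25 and 5.96), the protease inhibitor Timp2 (13.8 and 12.5 against 0.835 and 0.599) and the serine protease Htra1 (21.1 and 148 against 1.15 and 2.37) were higher. The basement membrane proteins Nid2 (1.14 and 0.4300 against 44.3 and 45.4) and Col18a1 (0.266 and 0.713 against 15.5 and 11.99) were lower. Nid1, the close relative of Nid2, ran opposite to it (15.8 and 3.38 against 1.04 and 0.833). In the list of serpins and other protease inhibitors 11 of 22 tested (of 29 listed) were higher and 3 lower, led by Serpinb9b (76.5 and 39.9 against 0.665 and 0.394), whose near copies may share reads, and the cathepsin inhibitor Cstb (1220.5 and 1893 against 384 and 320.2).

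**Figure D3:**
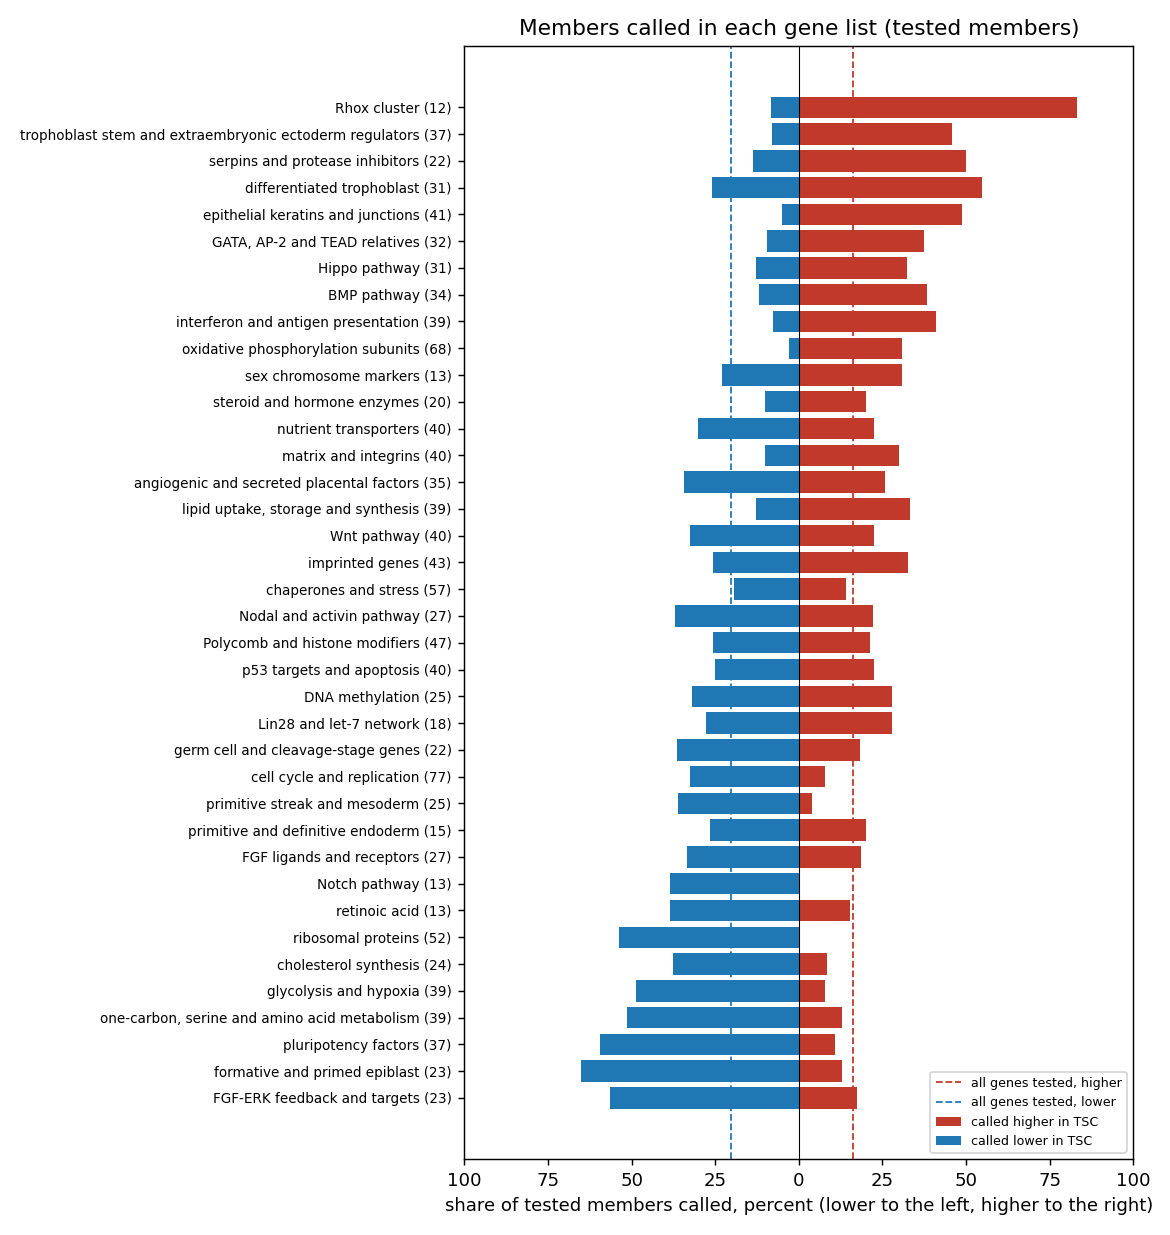
Share of the tested members of each list that were called higher in TSC (red, to the right) or lower (blue, to the left), in percent, with the number tested in brackets and lists in the order of their median difference. Dashed lines mark the shares of all genes tested, 16.2% higher and 20.2% lower. Genes enter only if they pass the filter on low values, and some belong to several lists.

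Energy metabolism split between glycolysis and respiration. Of 22 tested glycolytic enzymes 12 were lower in TSC and none higher (median -0.95). Enolase (Eno1) had 403 and 346 FPKM in TSC against 2588 and 2819 in iPSC (-2.85 ± 0.23, adjusted p = 8.1e-06). Pyruvate kinase (Pkm) had 304 and 442 against 2402 and 2267, phosphofructokinase (Pfkl) 22.1 and 57.5 against 198 and 215 and lactate dehydrogenase A (Ldha) 805 and 882 against 3911 and 3173. The kinase Pdk1, which keeps pyruvate out of mitochondria, stood at 2.93 and 4.68 against 47.6 and 56.4. The iPSC libraries were above both TSC libraries for each of these enzymes, while Ldhb (192 and 137 against 195 and 151), Hk1 and Hk2 did not pass. Glucose transporters differed in both directions, with Slc2a1 (GLUT1) at 835 and 717 against 212 and 195 and Slc2a3 (GLUT3) at 7.38 and 42.8 against 63.1 and 81.4. Of 13 tested hypoxia-response genes 5 were lower in TSC and 2 higher (median -0.97). The higher ones were Ndrg1 (135 and 206 against 10.7 and 11.1) and Car9 (6.49 and 7.03 against 0.1795 and 0).

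Subunits of oxidative phosphorylation were shifted a little towards TSC: 21 of 68 tested (of 69 listed) were higher and 2 lower, with a median of 0.41. Uqcr10 of complex III (1678 and 2776 FPKM against 821 and 680.4), Cox5b (1545 and 1704 against 724 and 513) and Cox6b1 (1761 and 2091 against 995 and 786) of complex IV and Atp5g1 of the ATP synthase (1264 and 1546 against 672 and 678) were among them. Ndufs4 of complex I was lower (67.2 and 77.2 against 133 and 121). Transcripts of the mitochondrial genome were uneven: of 15 tested 2 were called higher, mt-Cytb (5657 and 6093 against 2029 and 2131) and mt-Nd3 (3928 and 3635 against 1334 and 1604). In contrast mt-Rnr2 (7920.2 and 1308 against 2546 and 3412) and mt-Co1 (4736 and 617 against 1776 and 2281) differed more between the TSC replicates than between the cell types.

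Genes of cholesterol synthesis were lower in TSC for 9 of 24 tested (of 28 listed) and higher for 2, with a median of -0.88. Idi1 had 10.2 and 29.9 FPKM in TSC against 80.8 and 88.7 in iPSC and Cyp51 8.15 and 18.6 against 41.4 and 59.9. Among the higher genes was the cholesterol carrier Stard4 (28.5 and 42.5 against 16.4 and 16.3). As many as 15 of the tested members differed more than 2-fold between the TSC replicates, so this list depends on which replicate is read. Of 17 tested genes of lipid synthesis or storage 5 were higher and 2 lower. The higher ones included Dgat2, which makes triglyceride, at 74.8 and 143 against 5.57 and 9.397, the droplet coat Plin2 at 60.01 and 56.4 against 21.8 and 11.8 and its relative Plin3 at 125 and 206 against 31.4 and 27.6. Fatty acid synthase (Fasn, 48.9 and 76.2 against 58.7 and 51.7) did not pass. Of 39 tested (of 49 listed) lipid genes 13 were higher and 5 lower.

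Amino acid and one-carbon metabolism leaned towards iPSC: 20 of 39 tested (of 39 listed) were lower in TSC and 5 higher (median -1.07). The serine synthesis enzyme Phgdh had 43.3 and 64.5 FPKM against 134 and 179, and mitochondrial Mthfd2 17.2 and 14.5 against 39.4 and 61.3. Cystathionine lyase (Cth) had 0.158 and 2.21 against 54.02 and 73.02 and spermine synthase (Sms), an X-linked gene, 1.77 and 1.11 against 45.4 and 56.01. Tdh, the threonine dehydrogenase that mouse pluripotent cells rely on, was listed at 0 in both TSC libraries and stood at 3.49 and 4.15 in iPSC. Cytosolic Shmt1 (127 and 199 against 52.6 and 63.97), glutamine synthetase (Glul, 62.02 and 137 against 18.8 and 18.7) and glutaminase 2 (Gls2, 11.6 and 15.1 against 1.89 and 1.89) were higher in TSC. Transporters differed in both directions, with Slc38a4 and the water channel Aqp3 (7.54 and 57.9 against 0.367 and 0.455) higher and Slc7a3, Slc7a7 (1.28 and 6.51 against 69.5 and 48.5) and Slc1a3 (0.716 and 1.45 against 13.5 and 13.1) lower. Of 40 tested transporters (of 53 listed) 9 were higher and 12 lower.

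**Figure D4:**
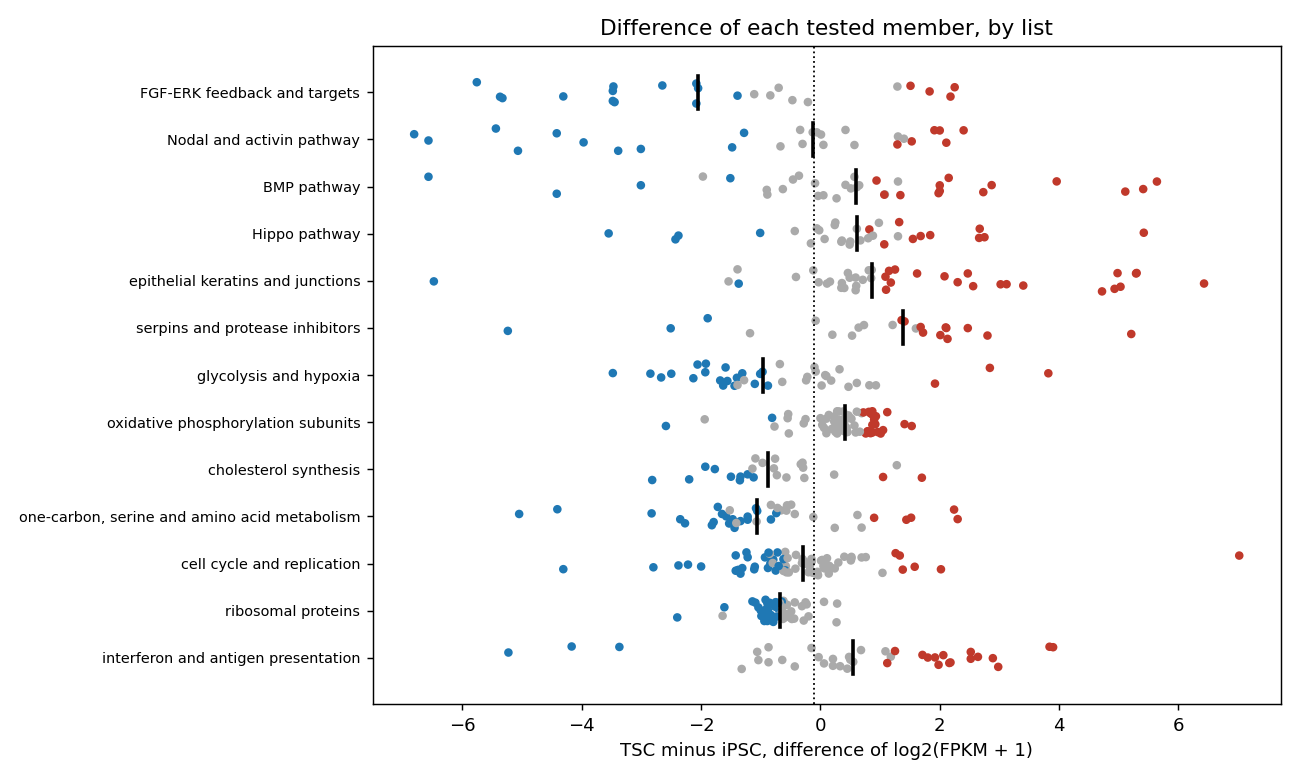
Difference (TSC minus iPSC, log2(FPKM + 1), x axis) of each tested member of 13 lists, red where called higher, blue where called lower and grey where not called, with a black bar at the list's median and a dotted line at the median of all genes, -0.11. FGF-ERK genes reach -5.76 (Dusp6) and lie mostly to the left, and ribosomal proteins form a narrow band around -0.68.

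Of 77 tested (of 84 listed) cell cycle genes 25 were lower in TSC and 6 higher (median -0.30). Cyclins D1 and D2 (Ccnd2, 0.609 and 0 FPKM against 7.38 and 4.18) and their kinase Cdk6 (0.134 and 0.0317 against 5.19 and 8.17) were lower. Cyclins D3 (Ccnd3, 99.9 and 187 against 62.6 and 69.5) and E1 (Ccne1, 175 and 161 against 102 and 137) and the mitotic kinase Cdk1 (244 and 242 against 324 and 323) did not pass. Inhibitors of cyclin-dependent kinases also differed in both directions: Cdkn1c, which giant cells use to stop dividing, was at 479.8 and 173 against 1.55 and 0.959 (7.02 ± 0.69). Cdkn1a was at 70.5 and 118 against 449 and 408 (-2.22 ± 0.54). Among genes of cell death, Ripk3, a kinase of necroptosis, was at 0.318 and 0.135 against 22.9 and 12.4 and its substrate Mlkl at 19.8 and 25.2 against 2.59 and 1.36, in opposite directions. The p53 target Pmaip1 (Noxa) was at 1.47 and 1.47 against 33.5 and 34.1. Ribosomal protein genes were lower in TSC for 28 of 52 tested (of 55 listed) and higher for none (median -0.68), by small amounts. Rps2 had 1802 and 1993 against 3860.2 and 3918 and Rplp0 1004 and 1532 against 3611 and 3956, while Rpl32 (3651 and 4819 against 3931 and 4140.1) did not pass. No member of this list differed more than 2-fold between the TSC replicates.

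Antigen presentation and interferon genes were higher in TSC for 16 of 39 tested (of 46 listed) and lower for 3 (median 0.55). The class I genes H2-K1 (335 and 262 FPKM against 80.2 and 89.00) and H2-D1 (516 and 311 against 24.5 and 27.3), which are near copies of each other, were higher. So were Oas1a (18.1 and 13.1 against 1.53 and 1.72), Ifi27 (17.8 and 11.2 against 0.122 and 0) and Ifi35 (30.8 and 64.2 against 5.23 and 4.33). All 3 lower members belong to the interferon-induced transmembrane family, which germ cells and pluripotent cells express without interferon: Ifitm1 (1.31 and 3.03 against 53.6 and 54.3), Ifitm2 (27.2 and 53.8 against 468 and 351) and Ifitm3 (10.1 and 6.21 against 462 and 242). As many as 14 of the tested members differed more than 2-fold between the TSC replicates. In the Lin28 network, Lin28b (0.234 and 0.428 against 7.63 and 9.14) and the let-7 targets Hmga1 (91.2 and 198 against 609 and 665) and Igf2bp3 (0.635 and 1.92 against 18.5 and 17.6) were lower. The reprogramming barrier Arid3a, which trophoblast stem cells use, was higher (30.3 and 21.9 against 3.97 and 1.56). Stress genes were divided, with the heat shock protein Hspb1 (1887 and 865 against 185 and 168) and the lipid peroxidase Gpx4 (1509 and 2269.9 against 362 and 316) higher and Gsta4 (2.04 and 25.7 against 226 and 274) lower. Secreted factors also divided: the growth factors Pdgfa (98.3 and 85.9 against 4.600 and 2.503) and Pdgfb (14.8 and 21.01 against 0.404 and 0.443) were higher, the IGF-binding Igfbp2 (9.34 and 6.11 against 282 and 292) lower, and the angiogenic Vegfa and Pgf did not pass.

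Surf1, chosen after its values were seen, was lower in every TSC library than in any iPSC library. In the 8 TSC libraries of the series it lay between 0 and 7.45 FPKM, and in the 8 iPSC libraries between 24.9 and 32.3. The highest TSC value belonged to replicate 2 of the assembled TSC part.

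The difference between the cell types was then set against that of the assembled parts, and against that of cells alone with BMP4, as a difference of differences in the same fit. Replicate 2 of the assembled TSC part also held RNA typical of iPSC (Pou5f1 at 13.2 FPKM, against 2.33 in replicate 1). Replicate 2 of the iPSC part assembled with BMP4 was high in Igf2, which is typical of TSC (214 against 6.46 in replicate 1). In that library Surf1 (25.8 against 25.5) and Pou5f1 (112 against 49.5) were not lower than in replicate 1. Plac1 (0.871 against 2.53) and Vgll1 (0.155 against 0.200) were not higher. Whether it held RNA of TSC cells was not tested. Several results that touch the assembled parts are therefore also given without this pair of libraries. Counts of list members come from the fit of all 16 libraries. Differences against cells with BMP4 do not use the pair, but their standard errors do. Of 13406 genes, 665 (4.96%) had a lineage difference that differed between lone and assembled cells, 225 of them more positive alone (1.68%) and 440 more negative (3.28%). Without the pair 511 were called. The count was 580 and 731 without either library of TSC alone and between 104 and 359 without any 1 of replicates 1 and 2 of iPSC alone, the assembled TSC part and the assembled iPSC part. Between lone cells without and with BMP4, 374 (2.79%) differed, 183 more positive without BMP4 (1.37%) and 191 more negative (1.42%). This count was 316 and 353 without either library of TSC alone, 427 without replicate 2 of TSC alone with BMP4, and between 54 and 148 without replicate 1 of that group or any 1 library of iPSC alone or iPSC alone with BMP4.

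For several of the genes with the largest differences the lineage difference itself was larger in lone cells without BMP4. These genes were chosen by their difference in lone cells, a choice that favours this direction. Plac1 was 745 and 293 FPKM in TSC alone, 16.01 and 14.2 with BMP4 and 0.6398 and 4.86 in the assembled TSC part. Its lineage difference was 7.58 ± 1.10 larger alone than assembled (limma adjusted p = 0.00446). Without the pair it was 8.50 ± 1.14 larger (limma adjusted p = 0.00795), and it was 6.13 ± 1.10 larger than with BMP4 (limma adjusted p = 0.0154). Vgll1 stood at 33.4 and 55.2 FPKM in TSC alone, 3.92 and 4.997 with BMP4 and 0.648 and 1.96 in the assembled TSC part, and its lineage difference was 4.28 ± 0.54 larger alone than assembled (4.70 ± 0.58 without the pair) and 3.25 ± 0.54 larger than with BMP4. For both genes the lone untreated TSC libraries lay above all 6 other TSC libraries. Rhox6 and Igf2 did not pass either test of the interaction (adjusted p = 0.31 and 0.279 for Rhox6, 0.906 and 0.445 for Igf2).

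Of the 23 tested feedback genes and targets of ERK, the lineage difference was more negative in lone than in assembled cells for 7 and more positive for 1, Pea15a (1.23 ± 0.29). It was more negative without than with BMP4 for 7 and more positive for 2, Dusp5 (2.28 ± 0.52) and Myc (1.86 ± 0.45). Egr1 and Spry4 passed neither test. Dusp6 was 0.206 and 0.0433 FPKM in TSC alone, 17.5 and 10.00 with BMP4 and 4.16 and 8.51 in the assembled TSC part, while the matching iPSC groups had 57.3 and 62.5 alone, 121 and 141 with BMP4 and 34.97 and 53.2 assembled. Its lineage difference was more negative alone, by -3.10 ± 0.61 against the assembled parts (limma adjusted p = 0.0168), by -2.66 ± 0.50 without the pair and by -2.56 ± 0.61 against cells with BMP4 (limma adjusted p = 0.0461). Etv5 stood at 0.06402 and 0.208 FPKM in TSC alone, 8.64 and 17.99 with BMP4 and 6.904 and 10.2 in the assembled TSC part, and its lineage difference changed by -3.65 ± 0.53 (-3.40 ± 0.53 without the pair) and -3.44 ± 0.53. In both genes the lone TSC libraries without BMP4 were the only TSC libraries under 1 FPKM. Fgf5 in iPSC stood at 44.3 and 45.9 alone, 2.94 and 4.01 with BMP4 and 13.5 and 4.55 assembled. Its lineage difference was more negative alone, by -3.31 ± 0.67 against cells with BMP4 (limma adjusted p = 0.0247) and by -3.10 ± 0.67 against the assembled parts (limma adjusted p = 0.0234). The second call ended without the pair (-2.34 ± 0.62, limma adjusted p = 0.0618). Of the enzymes of glycolysis, Eno1 (-1.80 ± 0.33, limma adjusted p = 0.0126) and Pkm (-2.63 ± 0.43, limma adjusted p = 0.00842) also had a lineage difference that was more negative in lone than in assembled cells. Without the pair Eno1 gave -1.83 ± 0.40 and Pkm -2.48 ± 0.51, and both calls were kept. Those of Pfkl (-2.63 ± 0.63, and -2.67 ± 0.70 without the pair) and Slc2a3 (-3.56 ± 0.82 and -3.05 ± 0.94) were not kept. With all 16 libraries, 10 of 39 tested glycolysis and hypoxia genes were more negative in lone cells and 1 more positive.

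**Figure D5:**
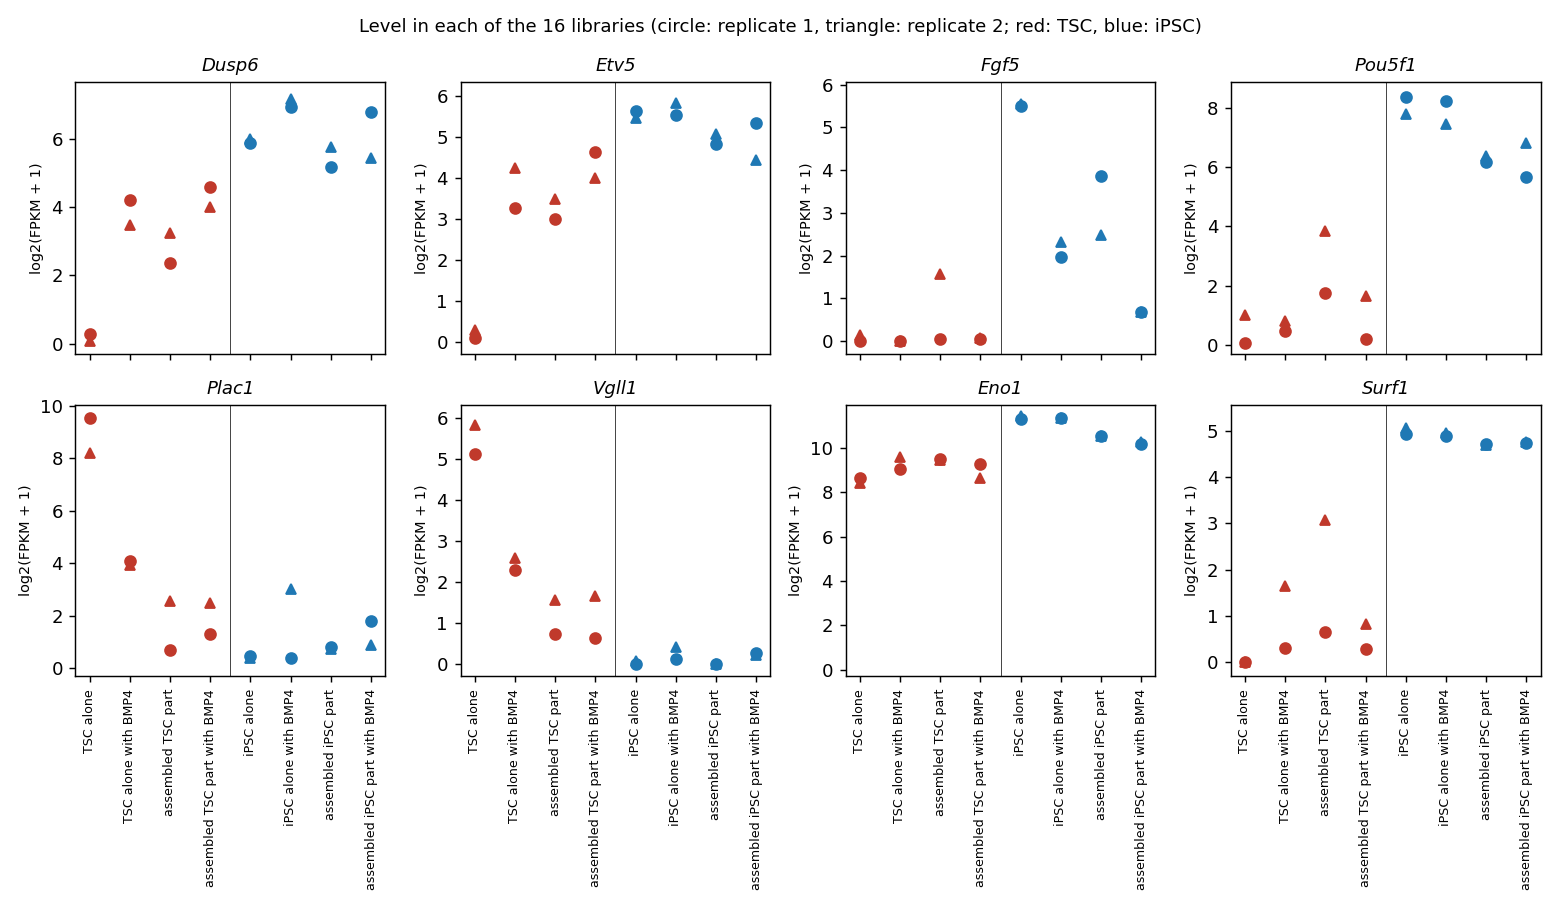
Level of 8 genes in each of the 16 libraries, as log2(FPKM + 1), with TSC groups in red on the left of each panel and iPSC groups in blue on the right (circle for replicate 1, triangle for replicate 2). Plac1 and Vgll1 are highest in TSC alone, Dusp6 and Etv5 are under 1 FPKM in no other group, and Surf1 separates the 8 TSC from the 8 iPSC libraries.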

How the data were processed

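The authors deposited FPKM per gene symbol for all 16 libraries in 1 table of 31663 entries, 12 of which share a symbol. The submitters' processing notes name CASAVA, TopHat2 and the builds mm9 and hg19 without versions or roles. The program that made the FPKM values, the annotation and the use of strand are not stated in the labels or notes. The table holds no counts, so the depth of each library is unknown and no counting interval is given. The labels give the groups, 2 libraries each. All 8 group means were fitted to log2(FPKM + 1) of the 16 libraries with limma 3.58.1 (R 4.3.3, trended empirical Bayes, 8 residual degrees of freedom), and p-values were adjusted over the 13406 genes that reached 1 FPKM in 2 or more libraries. The samples share 1 estimate of the spread. The steps were tested on simulated data. The fit recovered 13 of 67 genes with a 2-fold change, 58 of 67 with 4-fold and 64 of 66 with 8-fold, and 5 of its 140 calls were wrong. Only these genes were changed, all had an iPSC level above 5 FPKM, and every group was given the same spread. In the data 36.4% of the genes were called, low levels included, and the TSC replicates lay further apart. The simulated rates therefore do not carry over to the comparison. Named genes were the 20 largest called differences per direction without overlap (mean of the higher group 5 FPKM or more), up to 5 called members per direction of each list, preset anchor genes of the lists, and the 10 highest levels per group, without predicted names. A few genes that the rule names are not reported here. Surf1, mt-Co1 and mt-Nd3 were added after their values were seen. The comparison, its 42 gene lists and the rule were chosen with earlier results of these data known. Alternatives covered the pseudocount, the filter, the scaling, library weights, the libraries in the fit, the call rule and each of the 16 libraries left out in turn. The chromosome medians were added after seeing the data. Python 3.11.15 with pandas 2.3.3, numpy 2.4.6 and matplotlib 3.10.9 made the summaries and figures.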

Additional observations from a re-analysis of the deposited data

Results flagged for a closer look

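Among 38 genes with the largest differences, 14 had a lineage difference that itself differed between lone and assembled cells, or between lone cells without and with BMP4, by the test of that difference in limma. Over all genes tested 4.96% differed in the first way and 2.79% in the second. The 38 genes were chosen by their difference in lone cells, which enters both tests, so the choice itself favours a larger difference alone. Their number and direction are therefore descriptions. Each value below is the lineage difference in lone cells without BMP4 minus the other one, on the log2 scale with its standard error.

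On the side of TSC, the difference of Plac1 was 7.58 ± 1.10 larger alone than in the assembled parts and 6.13 ± 1.10 larger than with BMP4. Vgll1 gave 4.28 ± 0.54 and 3.25 ± 0.54, and the distal-less factor Dlx3 2.46 ± 0.43 and 3.05 ± 0.43. Against the assembled parts alone, Lgals3 gave 7.15 ± 1.62 (adjusted p = 0.0272), Pparg 5.80 ± 0.84 (0.00446), Cdkn1c 4.84 ± 0.98 (0.0185) and Mbnl3 4.36 ± 1.05 (0.0354). Against cells with BMP4 alone, Dkkl1 gave 4.52 ± 0.83 (adjusted p = 0.017). For these 5 genes the test against the other setting did not pass, which does not show that the settings differ.

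On the side of iPSC, Psors1c2 gave -4.24 ± 0.86 against the assembled parts and -3.67 ± 0.86 against cells with BMP4, Dusp6 -3.10 ± 0.61 and -2.56 ± 0.61, Fgf5 -3.10 ± 0.67 and -3.31 ± 0.67, and Etv5 -3.65 ± 0.53 and -3.44 ± 0.53. Pou5f1 gave -4.05 ± 0.92 (adjusted p = 0.0272) and the mitochondrial ribosomal protein Mrpl23 -4.25 ± 0.78 (0.0134) against the assembled parts only. Without the pair of libraries described above, the values against the assembled parts of Pou5f1 (-3.0 ± 0.76) and Fgf5 (-2.34 ± 0.62) no longer passed. Those of Plac1, Vgll1, Dlx3, Lgals3, Pparg, Cdkn1c, Mbnl3, Psors1c2, Dusp6, Mrpl23 and Etv5 still passed. Other values passed only without the pair. Against the assembled parts these were Trh (-3.37 ± 0.55, adjusted p = 0.0149 from 0.128) and Pim2 (-2.69 ± 0.45, 0.0157 from 0.0673). Against cells with BMP4 they were Pim2 (-4.01 ± 0.41, 0.000953 from 0.076), Lgals3 (5.83 ± 1.02, 0.0155 from 0.0738) and Csrp1 (1.81 ± 0.36, 0.0249 from 0.123). No group has more than 2 libraries, so no library was tested for lying apart from its group.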

How the results depend on the processing

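Of the called genes that an alternative also tested, 61.7% to 98.6% were called again in the same direction and none in the opposite one. Leaving out 1 of the libraries compared gave 3045 to 4221 calls in all, 1385 to 2146 higher and 1660 to 2415 lower, 104 to 731 for lone against assembled cells and 54 to 427 without against with BMP4. The lowest of these counts came without replicate 2 of iPSC alone, except without against with BMP4, where it came without replicate 2 of iPSC alone with BMP4. Leaving out 1 library of another group gave 4527 to 5053 calls in all (added after seeing the data). The other settings, the call rule with a difference of at least 1 included, gave 3946 to 5013 calls. With the replicate block 4746, 604 and 331 genes were called for the 3 comparisons, and the deviations of same-numbered libraries had r = -0.0471 across genes between TSC and iPSC alone and -0.185 to 0.119 over all 28 pairs of groups, so the numbers were not taken to pair libraries. Higher genes made up 44.5% of the calls, 49.7% after quantile normalization and 39.2% without replicate 2 of TSC. With other scalings the median difference of all genes lay between -0.12 and -0.02. Of the medians of the 42 lists, 20 moved by more than the spread between library pairs with pseudocount 0.1, 13 with only the 4 libraries compared, 13 after quantile normalization, 14 and 15 without replicates 1 and 2 of TSC and 7 and 4 without those of iPSC. In 11 lists, with medians between -0.32 and 0.19, the median changed sign under an alternative, among them those of the Wnt pathway (0.10, and -0.35 without replicate 2 of TSC) and the Nodal pathway (-0.13, and 0.02 after quantile normalization). Of 218 called genes named in the text, 13 lost the call without replicate 1 of TSC, 18 without replicate 2, 25 without replicate 1 of iPSC and 25 without replicate 2, among them Sall4, Cyr61, Slc2a3, Ezh1, Gab1, Atp5g1, Igfbp2 and mt-Cytb, and none reversed. Where a group keeps 1 library, that library is assumed to vary like the others. The unknown depth limits what can be said of genes listed at 0.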

Other observations

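Of germ cell and cleavage-stage genes 22 of 36 were tested, 4 were higher in TSC and 8 lower. Tex19.1, which guards germ line and placenta against retrotransposons, stood at 341 and 90.8 FPKM against 11.4 and 19.02, and Stag3, a cohesin subunit of meiosis, at 5.39 and 6.11 against 0.917 and 0.153. Mael, another retrotransposon repressor, was lower in TSC (0.05696 and 0 against 7.33 and 7.29), and the meiotic axis gene Sycp3 was listed at 0 in both TSC libraries and stood at 6.45 and 11.9 in iPSC. Of steroid and hormone genes 4 of 20 tested were higher and 2 lower, beside 16.2% and 20.2% of all genes. Of these the prolactin receptor Prlr was higher (3.89 and 5.198 against 0.164 and 0.934) and the growth hormone receptor Ghr lower (0.269 and 0.4299 against 9.86 and 6.05). The secreted phosphoprotein Spp1 stood at 53.9 and 0.275 against 282 and 237, with the TSC replicates far apart.

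Transcript length and GC content differed a little between the classes of genes, over the 99.8% of tested genes that GENCODE vM21 holds. The median longest transcript was 3214 bases for genes called higher in TSC, 2573 for those lower and 2963 for those not called, and the median GC content was 51.9%, 49.1% and 49.7%. Across genes, which are not independent replicates, Spearman's rho of the difference was 0.146 with length and 0.088 with GC content.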
